A study of Mus musculus with 6 samples.

Results

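Monocyte identity genes were examined in macrophages sorted from mouse pancreatic tumours. They are 9 genes, Ly6c2, Plac8, Vcan, F10, Ms4a4c, Ifitm6, Spn, Ace and Treml4, chosen by gene symbol from the 53647 genes of the deposited expression table. Each symbol named 1 row. The RNA came from C57BL/6 mice that carried orthotopic pancreatic ductal adenocarcinoma (PDAC), a tumour grown in the pancreas itself. Tumour macrophages were sorted by the chemokine receptor Cxcr4 into Cxcr4+ cells (3 libraries) and Cxcr4- cells (3 libraries), and the comparison asks how these populations differ. All 6 libraries share the strain and the tumour model. The labels give no age, tumour line, antibody or gate, nor whether each library stands for a mouse of its own. A p-value here therefore reflects variation among libraries, which may be technical.

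Blood monocytes leave the bone marrow as classical cells, which in the mouse carry much Ly6C on their surface and are drawn into inflamed tissue. Part of them turn into non-classical cells, which lose Ly6C, gain CD43 and crawl along the inside of vessels. In tissues and tumours, classical monocytes can become macrophages, and their monocyte transcripts decline on the way. Ly6c2, Plac8, Vcan, F10, Ms4a4c and Ifitm6 are typical of the classical cells, while Spn, Ace and Treml4 are typical of the non-classical cells.

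Levels are given as FPKM, fragments scaled to transcript length and library size, as the authors deposited them. The estimated counts beside them are often multiples of 4 at the low end (43.2% of values from 1 to 20). A floor of 12 counts was used for detection, or 3 fragments if 4 counts stand for 1, which was assumed. The libraries held 46444934 to 55740671 counts, and 19457 to 20433 genes had a count above 0. Differences were tested with edgeR's quasi-likelihood test over 16031 genes, with p-values adjusted by Benjamini-Hochberg over all of them. In that fit 5 genes had an adjusted p under 0.05, or 0.0312% of those tested, with 2 higher and 3 lower in Cxcr4+ libraries.

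Some macrophage markers were abundant and others were near 0. The lysozyme gene Lyz2 averaged 6344 ± 865 FPKM, Cd68 1115 ± 83.2, the growth factor receptor Csf1r 79.5 ± 9.76 and Adgre1, which encodes F4/80, 20.4 ± 2.24 (SD, n = 6 libraries). The complement genes C1qa, C1qb and C1qc, abundant in many tissue macrophages, averaged 0.232, 0.321 and 0.140 FPKM, and the mannose receptor gene Mrc1 0.0257. Means in Cxcr4+ against Cxcr4- libraries were 0.396 against 0.0671 FPKM for C1qa, 0.601 against 0.0409 for C1qb and 0.269 against 0.0114 for C1qc. All Cxcr4- counts of these genes were under the floor of 12. They were 0, 4 and 8 for C1qa, 4, 4 and 0 for C1qb, and 0, 4 and 0 for C1qc. The edgeR adjusted p was 0.998 for C1qa and 0.953 for C1qb, and C1qc was not tested. Cxcr4+ replicate 1 was the highest library for each complement gene. Of 12 macrophage markers 10 were tested, 7 with a positive and 3 with a negative log2 fold change, and 0 passed.

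Only 1 of the 9 monocyte genes was abundant. Ifitm6 averaged 50.8 ± 3.68 FPKM over the 6 libraries, rank 827 of the table, which is 33.8 times the summed mean of the other 8 genes. Those 8 stayed under 1 FPKM in every library, with 0.634 FPKM as their highest value. After Ifitm6 the order of mean levels was F10 (0.447 FPKM), Spn (0.373), Plac8 (0.330), Vcan, Ms4a4c (0.0886), Treml4 (0.0855), Ly6c2 (0.0711) and Ace (0.00757). From F10 down to Ly6c2 the ranges of neighbours over the 6 libraries overlapped, so that their order is not fixed. Ifitm6 lay above F10, and Ly6c2 above Ace, in every library. In bulk RNA, fewer cells of a type and less RNA per cell cannot be told apart.

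At least 12 counts in all 6 libraries were found for 5 genes, Ifitm6, F10, Spn, Plac8 and Vcan. For comparison, 51.8% of the 21789 protein-coding genes in the table met that floor. The mean level of Plac8, Spn and F10 was above the median protein-coding gene (0.242 FPKM). Vcan, Ms4a4c, Treml4, Ly6c2 and Ace were below it. Ly6c2 and Treml4 had a count above 0 in all 6 libraries without reaching the floor in all, Ms4a4c in 4 libraries and Ace in 3.

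**Figure D1:**
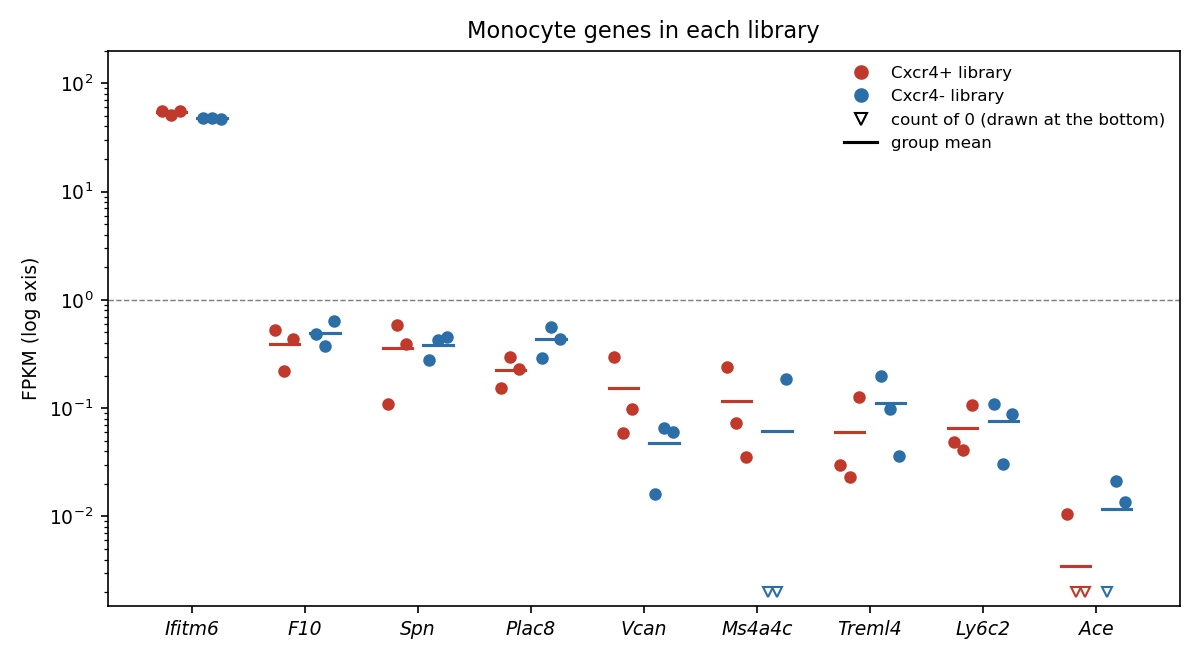
FPKM of the 9 monocyte genes (log axis), 1 point per library, with Cxcr4+ libraries (red) left of Cxcr4- libraries (blue), lines at group means and open triangles for counts of 0. Ifitm6 sits at 46.9 to 55.2 FPKM in all 6 libraries, while the other 8 genes lie under the dashed line at 1 FPKM.

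Among the 9 genes, 7 passed the filter on low counts and were tested, and Ace and Ms4a4c did not. None of the 7 had an adjusted p under 0.05 by edgeR, against 0.0312% of all genes tested, or by DESeq2, against 0.406% of the genes that DESeq2 tested. At an unadjusted edgeR p under 0.05 there was 1 gene, Vcan, where 4.85% of all tested genes passed. The groups did not overlap for 1 gene, Ifitm6, where this held for 10.4% of all tested genes. Log2 fold changes, Cxcr4+ over Cxcr4-, were positive for Ifitm6 and Vcan and negative for the other 5, with a median of -0.26 beside 0.00 over all tested genes. The values of each gene follow by role.

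Ly6c2 encodes Ly6C2, the surface protein by which classical monocytes are sorted. It lies on chromosome 15 at 74980007 to 74983819, reverse strand, in GRCm39, the build of all gene positions here. The first 90 coding bases of Ly6c2 and of its neighbour Ly6c1, from GENCODE M21 transcripts, show how alike the copies are, which bears on how reads can be assigned. Capitals mark the 6 bases that differ.
Ly6c2: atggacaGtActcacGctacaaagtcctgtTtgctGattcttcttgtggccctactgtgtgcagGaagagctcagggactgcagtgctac
Ly6c1: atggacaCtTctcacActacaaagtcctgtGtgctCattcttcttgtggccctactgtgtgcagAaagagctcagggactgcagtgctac
Over the whole coding sequence of 393 bases the closest pair of annotated transcripts differed at 9 positions (97.7% identity), with an identical run of 188 bases. Of the 50-base windows in Ly6c2 transcripts 85.6% were found in no other gene, so that part of the reads may be split between the copies and both values are uncertain.

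Ly6c2 had 9, 7 and 18 counts (0.0488, 0.0409 and 0.107 FPKM) in Cxcr4+ libraries, against 18, 5 and 14 counts (0.110, 0.0307 and 0.0887 FPKM) in Cxcr4- libraries. In each group the libraries lay on both sides of the floor of 12 counts, and the ranges overlapped almost wholly. A log2 fold change of -0.26 with SE 0.77 resulted (exact two-sided permutation p = 0.9; edgeR adjusted p = 0.9997). Its sign depended on single libraries: leaving out Cxcr4+ replicate 2 gave 0.0040, and leaving out Cxcr4- replicate 1 gave 0.10. Ly6c1 had 0.237, 0.199 and 0.181 FPKM in Cxcr4+ and 0.134, 0.0905 and 0.243 FPKM in Cxcr4- libraries, so neither copy reached 1 FPKM.

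Plac8 encodes a small cysteine-rich protein of myeloid cells that is also made by pancreatic tumour cells. It lies on chromosome 5 at 100701591 to 100720111, reverse strand. Its FPKM was 0.154, 0.299 and 0.229 in Cxcr4+ libraries, against 0.291, 0.566 and 0.438 in Cxcr4- libraries. The groups overlapped by 1 pair only, as Cxcr4+ replicate 2 lay just above Cxcr4- replicate 1. Counts were 16, 30 and 23 in Cxcr4+ and 27, 53 and 39 in Cxcr4- libraries. The ratio of means was 0.527 and the log2 fold change -0.91 with SE 0.46 (exact permutation p = 0.2; edgeR adjusted p = 0.999). That difference missed the threshold. Epithelial markers were ordered in a similar way: their summed FPKM was 1.83, 3.11 and 3.38 in Cxcr4+ libraries, against 3.60, 6.11 and 6.34 in Cxcr4- libraries. Of those 10 markers 8 were tested, all with negative log2 fold changes but 0 past the threshold, and Tff1 was at 0 in every library. Their part in the Plac8 values was not tested.

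Vcan encodes versican, a large chondroitin sulphate proteoglycan that classical monocytes and fibroblasts both secrete. It lies on chromosome 13 at 89803431 to 89890628, reverse strand. Its FPKM was 0.300, 0.0590 and 0.0982 in Cxcr4+ libraries, against 0.0160, 0.0659 and 0.0609 in Cxcr4- libraries. Cxcr4+ replicate 1 stood far above the other 5 libraries, with 275 counts against 14 to 85, and the groups overlapped. By edgeR the log2 fold change was 1.69 with SE 0.72 and an unadjusted p = 0.0480, which became an adjusted p = 0.999. The exact permutation test of mean FPKM gave p = 0.3. Without Cxcr4+ replicate 1 the log2 fold change was 0.72 (unadjusted p = 0.280 by edgeR). Without Cxcr4- replicate 1, the lowest library, the log2 fold change was 1.30 (unadjusted p = 0.119 by edgeR).

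The library high in Vcan was also the one highest in fibroblast markers. The summed FPKM of 10 fibroblast genes was 17.6, 3.38 and 4.10 in Cxcr4+ libraries, against 1.91, 2.22 and 3.32 in Cxcr4- libraries. Of these genes 8 were tested, all with positive log2 fold changes but 0 past the threshold, and Lum was at 0 in every library. A pair of other classical monocyte genes whose proteins also belong to the matrix had the same outlying library. The fibronectin gene Fn1 had 4.47, 0.466 and 1.12 FPKM in Cxcr4+ and 0.223, 0.579 and 1.07 FPKM in Cxcr4- libraries. The thrombospondin gene Thbs1 had 5.77, 0.575 and 1.23 FPKM in Cxcr4+ and 0.574, 0.607 and 1.10 FPKM in Cxcr4- libraries. The part of fibroblast RNA in these values was not tested. An antisense transcript, Gm4117, overlaps an end of Vcan, from 89887579 to 89890628, and had 53 to 75 counts. Whether counting used strand is not given in the sources used here, so the reads of the pair may not be separated in that stretch.

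**Figure D2:**
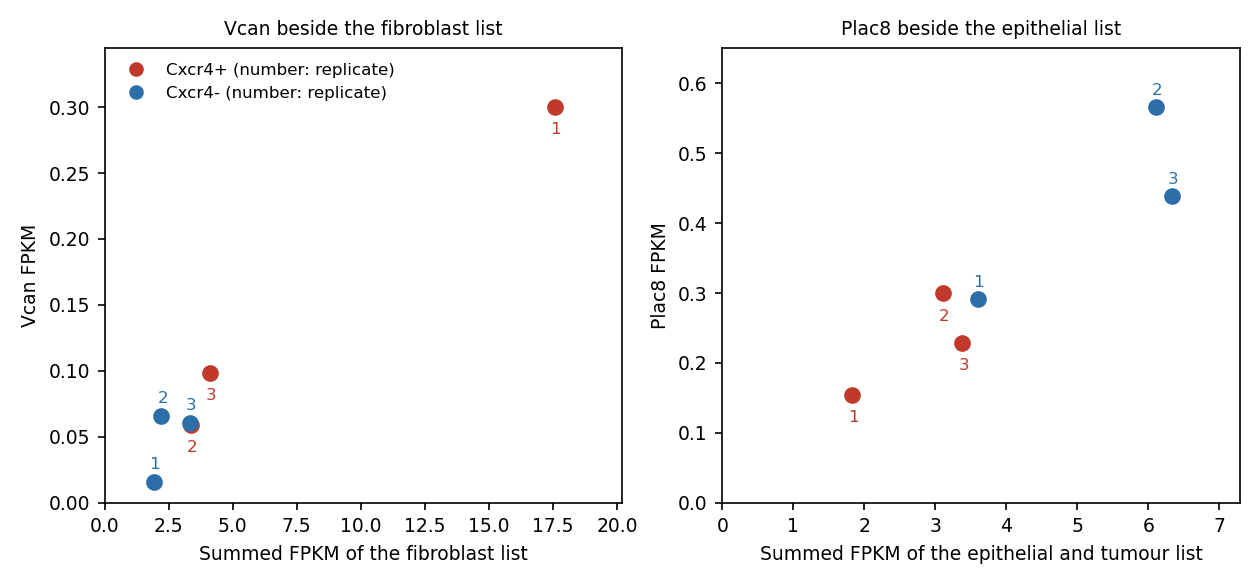
Left, Vcan FPKM (vertical) against the summed FPKM of 10 fibroblast markers (horizontal); right, Plac8 FPKM against the summed FPKM of 10 epithelial markers. Each point is a library numbered by replicate, red for Cxcr4+ and blue for Cxcr4-, and Cxcr4+ replicate 1 stands alone at 17.6 and 0.300 FPKM on the left.

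F10 encodes coagulation factor X, a clotting protease made mainly by the liver and also by monocytes and macrophages. It lies on chromosome 8 at 13087308 to 13106676, forward strand. Its FPKM was 0.526, 0.220 and 0.436 in Cxcr4+ libraries, against 0.488, 0.376 and 0.634 in Cxcr4- libraries. The groups overlapped, and the lowest and the highest library belonged to different groups. Its log2 fold change of -0.33, with SE 0.42, did not pass (exact permutation p = 0.5; edgeR adjusted p = 0.9997). Leaving out Cxcr4+ replicate 1 moved it to -0.61, and leaving out Cxcr4+ replicate 2 moved it to -0.03.

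Ms4a4c, a membrane protein of the MS4A family, lies on chromosome 19 at 11382134 to 11404610, forward strand. It had 27, 8 and 4 counts in Cxcr4+ libraries, against 0, 0 and 17 counts in Cxcr4- libraries. Only 1 library of each group reached the floor, at 0.238 FPKM in Cxcr4+ replicate 1 and 0.184 FPKM in Cxcr4- replicate 3. At this depth 12 counts correspond to 0.114 FPKM, and a difference was not detectable. Part of its sequence is shared with Ms4a4b: 91.8% of its 50-base windows were found in no other gene.

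Ifitm6, an interferon-induced transmembrane protein found on mouse myeloid cells, lies on chromosome 7 at 140595612 to 140597837, reverse strand. The 250 bases before its start are printed because it was the sole abundant gene of the 9. They come from RefSeq for GRCm38.p6, an earlier build than that of the deposited table, where they lie at chr7:141016893-141017142 on the reverse strand. Capitals mark a TATA box (TATAAA) and a GAS core (TTCNNNGAA), the letters of a STAT binding motif.
Ifitm6 promoter: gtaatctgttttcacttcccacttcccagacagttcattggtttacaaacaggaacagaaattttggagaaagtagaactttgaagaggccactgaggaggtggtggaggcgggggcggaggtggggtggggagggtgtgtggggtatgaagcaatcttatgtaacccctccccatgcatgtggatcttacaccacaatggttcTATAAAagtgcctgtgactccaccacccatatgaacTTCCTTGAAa
On either strand the TATA box was found in 12.4% and the GAS core in 7.02% of 32851 promoter windows of this length. Among the 12 windows listed for the 9 genes, the TATA box was found for Ace and Ifitm6 and the GAS core for Ifitm6. The core of the PU.1 motif (GAGGAA), found in 23.3% of all windows, was present for Ace, Ly6c2, Ms4a4c, Plac8 and Treml4. These matches describe the letters and not binding.

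Ifitm6 had 55.2, 51.5 and 55.1 FPKM in Cxcr4+ libraries, against 48.1, 48.1 and 46.9 FPKM in Cxcr4- libraries. The groups did not overlap but lay close together, with a ratio of means of 1.13. Counts were 3153, 2738 and 2936 in Cxcr4+ and 2474, 2429 and 2228 in Cxcr4- libraries. The log2 fold change was 0.17 with SE 0.10 (edgeR adjusted p = 0.999), and the exact permutation p was 0.1, the smallest that 3 against 3 libraries can give. The difference did not pass the test, and over 18 alternative settings the log2 fold change ran from 0.14 to 0.24, with an adjusted p of at least 0.507 in each.

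Spn encodes CD43, the sialomucin by which non-classical monocytes are told from classical ones. It lies on chromosome 7 at 126731404 to 126736986, reverse strand. Its FPKM was 0.110, 0.581 and 0.392 in Cxcr4+ libraries, against 0.281, 0.422 and 0.451 in Cxcr4- libraries. The Cxcr4+ group held both the lowest and the highest library. Over all 6 libraries the log2 fold change was -0.11 with SE 0.52 (exact permutation p = 0.8; edgeR adjusted p = 0.9997). Leaving out Cxcr4+ replicate 1 gave 0.31, and leaving out Cxcr4- replicate 3 gave 0.03, so the data give it no direction.

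Treml4, a receptor of the TREM-like family carried by non-classical monocytes and some macrophages, lies on chromosome 17 at 48571323 to 48582388, forward strand. It had 4, 4 and 16 counts (0.0298, 0.0231 and 0.128 FPKM) in Cxcr4+ libraries, against 23, 12 and 4 counts (0.199, 0.0975 and 0.0359 FPKM) in Cxcr4- libraries. The groups overlapped, and 3 of the 6 libraries were under the floor. A log2 fold change of -0.79 with SE 0.93 resulted (exact permutation p = 0.5; edgeR adjusted p = 0.9997). Over the alternatives it ran from -1.82, without Cxcr4+ replicate 3, to -0.01, with limma on log2(FPKM + 5). That pseudocount shrinks the fold changes of values this low. Without Cxcr4- replicate 1 the log2 fold change by edgeR was -0.07.

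Ace, angiotensin-converting enzyme, lies on chromosome 11 at 105858771 to 105880790, forward strand. It had 4, 0 and 0 counts in Cxcr4+ libraries, against 0, 7 and 4 counts in Cxcr4- libraries. No library reached the floor, which for this gene corresponds to 0.0363 FPKM, so Ace was not detectable at this depth and no fold is given.

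**Figure D3:**
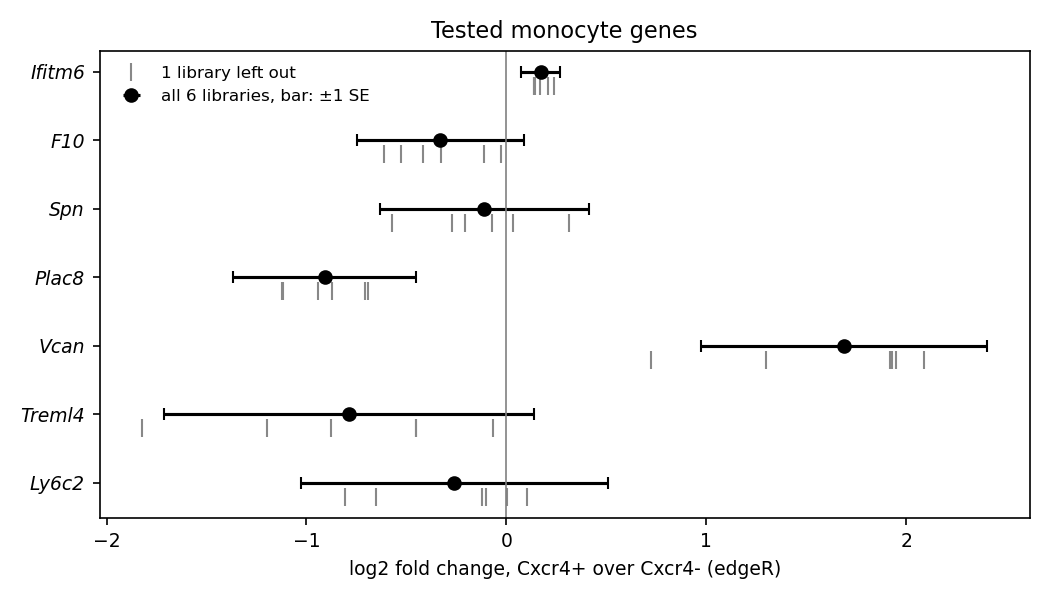
Log2 fold change, Cxcr4+ over Cxcr4-, of the 7 tested monocyte genes (points; bars are ±1 SE from edgeR), with grey ticks for the values when 1 library is left out. The ticks of Ly6c2 and Spn fall on both sides of 0, and the lowest tick of Vcan, at 0.72, is the value without Cxcr4+ replicate 1.

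The low level of the 8 genes did not extend to all genes known from monocytes. Of 15 other classical monocyte genes 10 averaged at least 1 FPKM, with a list median of 1.64 FPKM. The calcium-binding protein gene S100a4 averaged 631 FPKM. Ccr2, the chemokine receptor that takes classical monocytes out of the marrow, averaged 0.0814 FPKM, and the ficolin gene Fcnb was at 0 in every library. Between the groups 14 of these genes were tested, with 10 positive and 4 negative log2 fold changes, a median of 0.11 and 0 past the threshold. The smallest p belonged to Hp, haptoglobin, at 11.03, 10.4 and 13.3 FPKM in Cxcr4+ and 19.96, 24.7 and 20.3 FPKM in Cxcr4- libraries. Its groups were well apart, yet it did not pass over the whole table (log2 fold change -0.90 ± 0.14 SE; edgeR adjusted p = 0.332). Next was F13a1, the A subunit of clotting factor XIII, with 0.258, 0.437 and 0.395 FPKM in Cxcr4+ and 0.632, 0.981 and 0.616 FPKM in Cxcr4- libraries (log2 fold change -1.03 ± 0.26 SE; edgeR adjusted p = 0.953).

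Of 15 other non-classical monocyte genes 11 averaged at least 1 FPKM, and the list median was 7.20 FPKM. Fabp4, a fatty acid-binding protein that macrophages also make, averaged 251 FPKM, Nr4a1, the nuclear receptor on which non-classical monocytes depend, 9.19 FPKM, and the fractalkine receptor gene Cx3cr1 1.84 FPKM. Ear2 and Adgre4 were at 0 in every library. Among 12 tested genes 7 log2 fold changes were positive and 5 negative, with a median of 0.01 and 0 past the threshold. The integrin gene Itgal had 2.93, 3.15 and 2.44 FPKM in Cxcr4+ and 3.68, 4.04 and 2.97 FPKM in Cxcr4- libraries (log2 fold change -0.34, adjusted p = 0.999 by edgeR), and Cd300e, of next smallest p, a log2 fold change of 0.35.

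Transcription factors of the monocyte lineage were present throughout. All 16 reached the floor in all 6 libraries, and 12 averaged at least 1 FPKM, with Cebpb at 80.4, Spi1, which encodes PU.1, at 41.7, Irf8 at 6.19 and Klf4 at 5.11 FPKM. Of their log2 fold changes 4 were positive and 12 negative, with a median of -0.13 and 0 past the threshold. The smallest p were those of Cebpa, with 7.08 ± 0.496 FPKM in Cxcr4+ and 7.95 ± 0.450 FPKM in Cxcr4- libraries, and Bcl6, with 33.2 ± 1.30 FPKM in Cxcr4+ and 37.6 ± 2.08 FPKM in Cxcr4- libraries (SD, n = 3 libraries each). Their adjusted p was 0.999 by edgeR for both. Klf2, Cebpb, Nr4a1 and Pou2f2 were counted both in this list and among the non-classical monocyte genes.

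**Figure D4:**
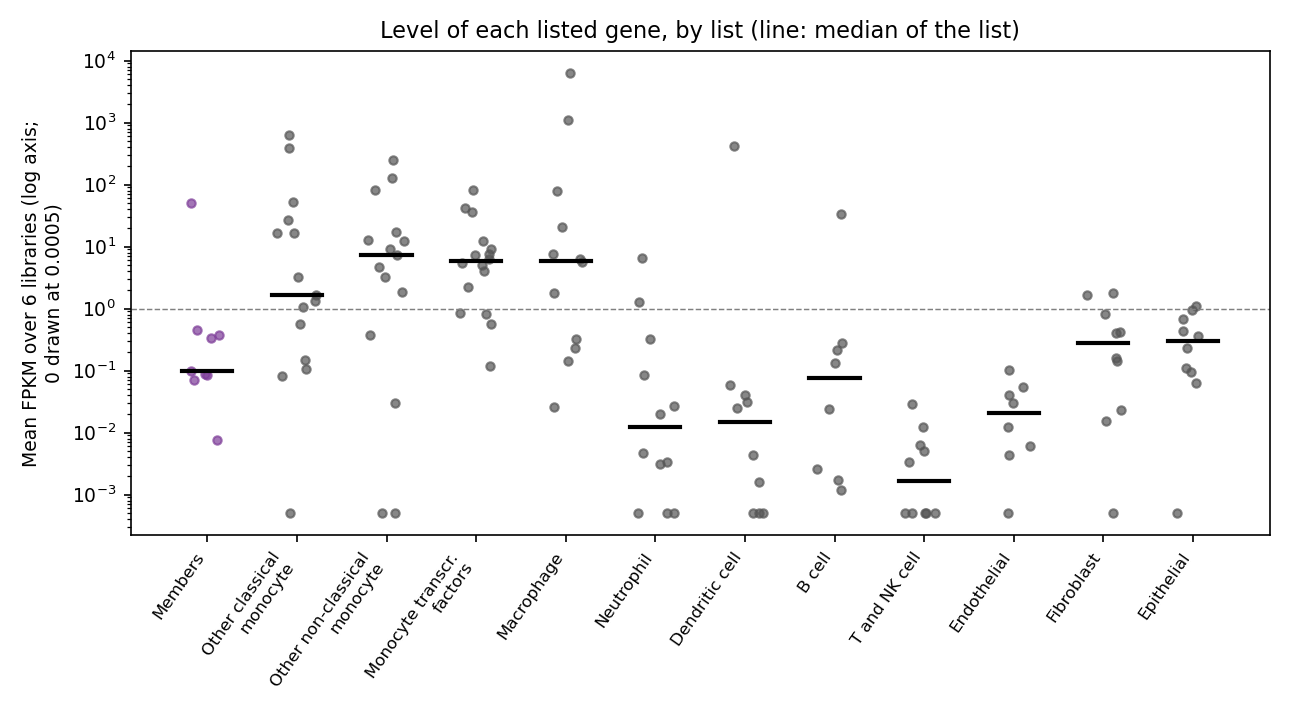
Mean FPKM over the 6 libraries (log axis) of each gene in the monocyte, macrophage and other cell type lists, 1 point per gene, with a bar at the list median. The median of the 9 monocyte genes lies under the medians of the other classical (1.64) and non-classical (7.20) monocyte genes and above the medians of the T and NK cell (0.00167) and endothelial (0.0209) lists; the fibroblast (0.283) and epithelial (0.297) medians lie above it.

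The lists of other cell types differed in level. The fibroblast and epithelial lists, given above beside Vcan and Plac8, had medians of 0.283 and 0.297 FPKM, above the median of the 9 monocyte genes, and most genes of the other lists were near 0. The summed FPKM of 10 T and NK cell markers was at most 0.102 in Cxcr4+ and 0.105 in Cxcr4- libraries, with 5 of them at 0 throughout. For 12 neutrophil markers it ranged over 6.66 to 9.34 among the Cxcr4+ libraries and 7.15 to 10.2 among the Cxcr4- libraries, mostly from S100a8, with S100a9, Camp and Ngp at 0 in every library. The endothelial sum was at most 0.455 among Cxcr4+ and 0.257 among Cxcr4- libraries. In the dendritic cell list Bst2, an interferon-induced gene of many cell types, averaged 417 FPKM and no other gene more than 0.0578, and in the B cell list Ighm averaged 34.1 FPKM and no other gene more than 0.277. The 8 monocyte genes other than Ifitm6 summed to 1.42, 1.30 and 1.43 FPKM in Cxcr4+ libraries, against 1.39, 1.58 and 1.91 FPKM in Cxcr4- libraries, so these sums overlapped too.

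Within the gene families of the members, the abundant genes were mostly others. In the Ly6 family Ly6e averaged 357 FPKM, with Ly6a at 1.07 FPKM and Ly6m at 0.246 FPKM; 4 of 11 relatives were tested, 3 positive and 1 negative. In the Ms4a family Ms4a6d averaged 23.8 FPKM, and 3 of 15 relatives were tested, all positive under each scaling tried. Ms4a6c had 4.36, 3.80 and 4.57 FPKM in Cxcr4+ and 3.09, 3.13 and 3.19 FPKM in Cxcr4- libraries, groups that did not overlap (log2 fold change 0.43 ± 0.15 SE; edgeR adjusted p = 0.998). Ms4a6d, with a log2 fold change of 0.27, did not pass either.

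Ifitm6 stood next among the Ifitm genes after Ifitm3 (1331 FPKM) and Ifitm2 (337 FPKM), which restrict the entry of viruses into cells. Among the tested genes of the family it alone had a positive log2 fold change: all 5 tested relatives were negative, with a median of -0.20, under TMM, RLE and library-total scaling alike, and 0 passed the test. Ifitm1 had 1.52, 0.826 and 1.71 FPKM in Cxcr4+ and 2.30, 1.76 and 2.31 FPKM in Cxcr4- libraries, with no overlap (log2 fold change -0.64 ± 0.35 SE; edgeR adjusted p = 0.999). In the Trem and Treml family Trem3 averaged 7.24 FPKM, and Trem2, a lipid receptor of macrophages, had 7.97, 6.88 and 7.23 FPKM in Cxcr4+ and 5.33, 4.82 and 5.32 FPKM in Cxcr4- libraries. The Trem2 groups were apart (log2 fold change 0.51 ± 0.12 SE; edgeR adjusted p = 0.927), and of 5 tested relatives 3 were positive and 2 negative.

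**Figure D5:**
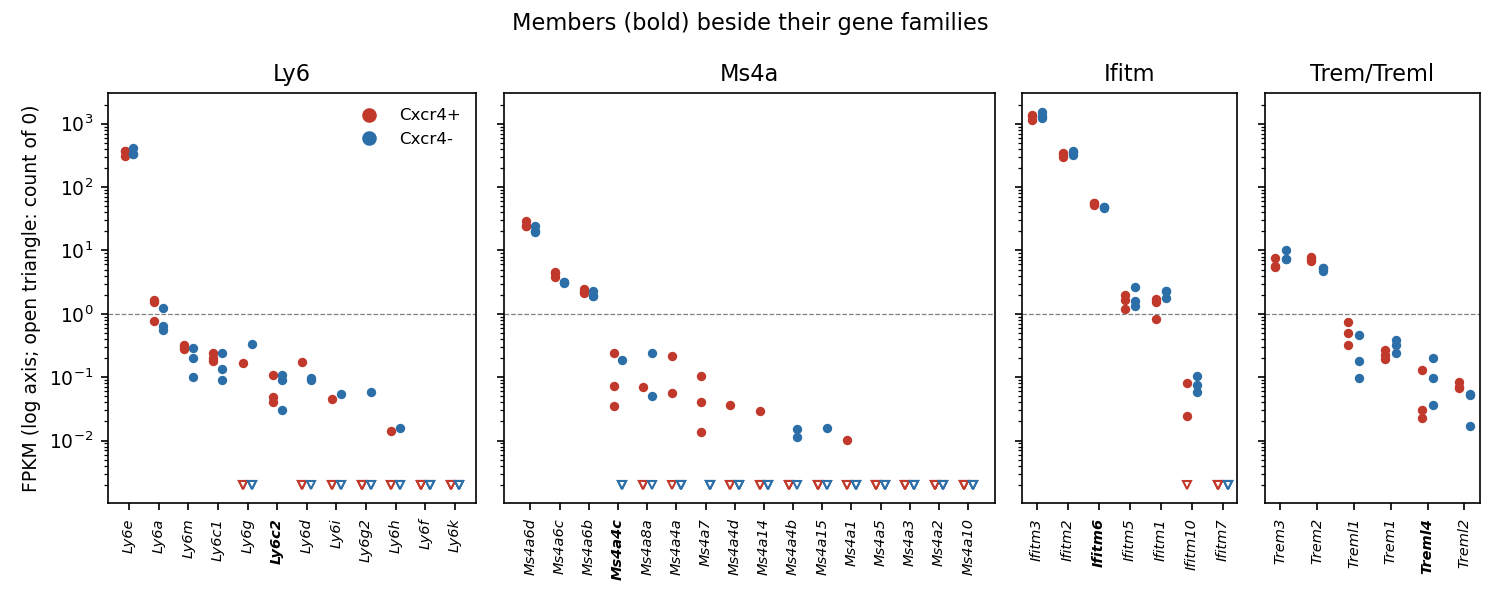
FPKM in each library (log axis) of the Ly6, Ms4a, Ifitm and Trem/Treml genes, ordered by mean, with Cxcr4+ libraries (red) left of Cxcr4- libraries (blue), the monocyte genes in bold and open triangles for counts of 0. Ly6c2, Ms4a4c and Treml4 lie under the dashed line at 1 FPKM in every library, while Ifitm6 stands next after Ifitm3 and Ifitm2.

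The genes that work with the members were examined in the same way, and 0 passed in any list. Of 21 clotting factors and regulators 14 were tested, 6 positive and 8 negative with a median of -0.11. Vkorc1, which recycles the vitamin K that factor X needs, averaged 21.5 FPKM, and Pros1, the anticoagulant protein S, had 8.89, 11.4 and 9.68 FPKM in Cxcr4+ and 6.86, 8.05 and 7.99 FPKM in Cxcr4- libraries (log2 fold change 0.38, adjusted p = 0.953 by edgeR). Of 13 angiotensin and kinin genes only 3 were tested, with 2 positive and 1 negative. These were led by Atp6ap2, the prorenin receptor, at 46.9 FPKM (log2 fold change 0.14), and the aminopeptidase gene Anpep had a log2 fold change of 0.25.

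For versican, 9 of 15 partner genes were tested, 6 positive and 3 negative with a median of 0.28. The hyaluronan receptor gene Hmmr, which is also a spindle protein, had 8.08, 8.78 and 9.25 FPKM in Cxcr4+ and 5.61, 6.60 and 7.13 FPKM in Cxcr4- libraries, with no overlap (log2 fold change 0.43 ± 0.11 SE; edgeR adjusted p = 0.953). Tlr2, a receptor that binds versican, averaged 23.1 FPKM, with a log2 fold change of -0.06, and the versican-cleaving protease gene Adamts1 had one of 0.82 at 0.0672 to 0.235 FPKM. A list of 13 genes related to CD43 held sialomucins, cytoskeletal linkers, selectins, other surface proteins and O-glycan enzymes. Of these 7 were positive and 6 negative with a median of 0.02. Msn, moesin, which links CD43 to actin, averaged 103 FPKM, against 0.373 FPKM for Spn on the same length-adjusted scale. Selplg, the selectin ligand PSGL-1, had 2.89, 2.85 and 1.79 FPKM in Cxcr4+ and 1.43, 1.53 and 1.42 FPKM in Cxcr4- libraries, with no overlap (log2 fold change 0.77 ± 0.20 SE; edgeR adjusted p = 0.953). Gcnt1, an enzyme of O-glycan branching, had 3.18, 3.56 and 3.07 FPKM in Cxcr4+ and 2.83, 2.49 and 2.68 FPKM in Cxcr4- libraries, with no overlap (log2 fold change 0.28; edgeR adjusted p = 0.999).

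For the 2 tested genes of highest level, the genes most alike in their pattern over the 6 libraries were sought among those of at least 5 FPKM, by Pearson's r of log2 CPM. For Ifitm6 they were Phf11b (r = 0.996), Akr1a1 (0.987) and Mapre1 (0.983), among 85 of 6302 genes with r over 0.9. For F10 they were Crkl (0.998), Taf8 (0.997) and Mrps30 (0.983), among 252 of 6303. The same 6 libraries, which differ in depth and group, give both sets of r, and the values are a description.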

How the data were processed

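RNA of sorted macrophages was measured in 6 libraries, and each sample's group came from its title. The submitters' processing notes name the trimmer cutadapt, the aligner HISAT2, the assembler StringTie and the build GRCm39. For their versions and the counting settings, the sources used here give nothing. A single table held, per the file headers, an estimated count and an FPKM value for each gene and library, both made by the authors. The counts were already whole, so rounding changed 0 values, and 43.2% of those from 1 to 20 were multiples of 4. The deposited FPKM holds a constant minimum where the count is 0, read here as 0. The test was edgeR's quasi-likelihood test (version 4.0.16, R 4.3.3, legacy method) on TMM-scaled counts with no covariate. It ran on genes kept by filterByExpr at a minimum count of 10 and a minimum total of 15. Each SE comes from the fold change and its F statistic. Single values were also compared by exact permutation of mean FPKM. Alternatives were limma 3.58.1 on log2(FPKM + 1), DESeq2 1.42.0, other scalings, filters and pseudocounts, the replicate number as a block, and leaving out each library. The fit was tested on simulated counts. Shared 50-base windows were counted in GENCODE M21 transcripts, and RefSeq promoters were matched by symbol for all 9 members but used with no gene position of the table. The members and lists were chosen with earlier results of these data known. All members are named. From each list other than the cell type markers, the text takes the gene of highest mean FPKM and the 2 of smallest p. Cell type markers are given as sums, list medians or single genes. Further genes given by level alone, and Fn1 and Thbs1, were chosen after their values were seen.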

Additional observations from a re-analysis of the deposited data

How the results depend on the processing

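Of the 7 tested monocyte genes 0 passed in any of 18 alternatives. Ly6c2, Plac8 and Treml4 had values in 16 of these, as a minimum count of 40 and counts divided by 4 left them out. The log2 fold change kept its sign in 116 of 120 alternative values, most of which used the same 6 libraries. All 4 changes of sign came with 1 library left out. It turned positive for Ly6c2 without Cxcr4+ replicate 2 (0.0040) and without Cxcr4- replicate 1 (0.10). For Spn this happened without Cxcr4+ replicate 1 (0.31) and without Cxcr4- replicate 3 (0.03). With 1 library left out, values ran from -0.81 to 0.10 for Ly6c2 and from -0.57 to 0.31 for Spn. Over the whole table the 5 calls became 65 with DESeq2, 2 with limma on log2(FPKM + 1), 1 with a pseudocount of 5, and 1 to 9 with 1 library left out; the cause was not tested. A replicate block left 0 genes called, monocyte genes included. Deviations of same-numbered libraries correlated at 0.0383, 0.141 and 0.0451. Cxcr4+ replicates 2 and 3 correlated best with the Cxcr4- library of the same number, and Cxcr4+ replicate 1 with Cxcr4- replicate 3 (0.0522). These values do not settle whether the numbers pair the samples, and the main fit used no pairing. Detection in all 6 libraries held for 5 genes at 12 counts, 7 at 3 counts and 1 at 1 FPKM. Low counts limit Ace, Ms4a4c, Treml4 and Ly6c2.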
